A study of Mus musculus with 6 samples.

Results

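The mitochondrial ribosomal protein genes are the nuclear genes that code for the protein part of the ribosome inside mitochondria. They were taken by symbol, as the protein-coding rows of the deposited table whose symbol is Mrpl or Mrps followed by a number and at most a letter. The rule found 78 genes of the 52636 in the table, of which 22027 are protein coding. By symbol 49 belong to the large subunit and 29 to the small subunit. The genes lie on 17 chromosomes, and 0 of them are on the X chromosome, where Zfx is.

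The mitochondrial ribosome makes the few proteins that the mitochondrial genome codes for, all of them membrane subunits of the respiratory chain and ATP synthase. Its RNA comes from the mitochondrial genome, while each of its proteins is made in the cytosol and imported, so a working particle needs nuclear and mitochondrial genes together. Some of the proteins have counterparts in bacterial ribosomes, and the others are found in mitochondria but not in bacteria.

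The values come from RNA sequencing of MC-38, a mouse colon tumour cell line, with no treatment in either group. Both groups carry the name M1E5 in their genotype label, which is not explained there. There were 3 libraries labelled M1E5 WT and 3 labelled M1E5 Zfx F5, the latter from a line in which Zfx, the gene of a zinc finger transcription factor, was targeted by lipid transfection of CRISPR ribonucleoprotein and checked by PCR. The series' title speaks of knockout clones, and all 3 targeted libraries carry the single name Zfx F5, so what is particular to a clone and what comes from Zfx cannot be told apart. Cells were grown in RPMI medium in vitro per the series' text, whereas the protocol for the RNA names tumour cells that were sorted. Levels are read counts scaled to a common library total (CPM, from the deposited values), and differences are Zfx F5 minus WT on the log2 scale with their standard error (SE).

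Each library held 18876673 to 24241864 reads. Zfx itself (ENSMUSG00000079509) was at 64.4, 69.7 and 68.9 CPM in WT and at 125, 129 and 122 CPM in Zfx F5, so its mRNA was higher in the libraries labelled as targeted (log2 difference 0.89, SE 0.042, limma adjusted p = 3.47e-18). A total per gene cannot tell a missing exon from an intact gene, and the groups are therefore named by label. Of 9 epithelial markers 1 passed the filter on low values, Cdh1, and Epcam, Krt19 and Krt20 had 0 reads in all libraries. Their sum was 0.636 to 1.07 CPM in WT and 3.80 to 4.18 CPM in Zfx F5. Of 7 fibroblast markers 4 passed, with sums of 1252 to 1284 CPM in WT and 3421 to 3548 CPM in Zfx F5. Myeloid markers (3 of 7 passed, Adgre1 and Itgam at 0) summed to 11.0 to 13.6 against 25.6 to 27.8 CPM, and endothelial markers (2 of 5 passed, Kdr and Tek at 0) to 12.8 to 13.7 against 33.9 to 39.0 CPM. T and natural killer cell markers (0 of 5 passed) summed to 0 against 0.0506 to 0.189 CPM. The part of these shifts in the results below was not tested.

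Most mitochondrial ribosomal protein genes were higher in the Zfx F5 libraries, by modest amounts. Of the 78 genes 75 passed the filter, set at a log2 level of 0 averaged across all 6 libraries. By limma at an adjusted p of 0.05, 49 of the 75 (65.3%) rose, 6 (8%) fell and 20 (26.7%) were not called. Among all 12279 genes tested, 37.0% were called higher and 35.9% lower, 72.9% in all, so a call as such is common in this comparison. The median log2 difference of the 75 genes was 0.28, or 1.21-fold, against 0.02 for all tested genes. The middle of the distribution ran from 0.04 to 0.46 for these genes and from -0.31 to 0.31 for all tested genes (lower to upper quartile).

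Rises of at least 1.5-fold were seen in 12 of the 75 genes (16%), where 11.5% of all tested genes rose as much. A fall of at least 1.5-fold was seen in 1 gene, Mrps26 (1.33%), where 13.2% of all tested genes fell as much. A change of 2-fold or more was reached by 1 gene, Mrpl52 (1.33%), against 10.1% of all tested genes. The replicates lay close together, with a median SD of 0.07 in WT and 0.04 in Zfx F5 on the log2 scale. The 3 WT and 3 Zfx F5 values of a gene did not overlap for 54 of the 75 genes, with Zfx F5 above WT for 47 and below for 7. Among all tested genes the groups did not overlap for 74.3%, with Zfx F5 above for 37.8% and below for 36.5%. Between 41 and 5644 reads per library lay behind each of the 75 genes. In bulk RNA, more cells of a kind and more RNA per cell cannot be told apart.

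**Figure D1:**
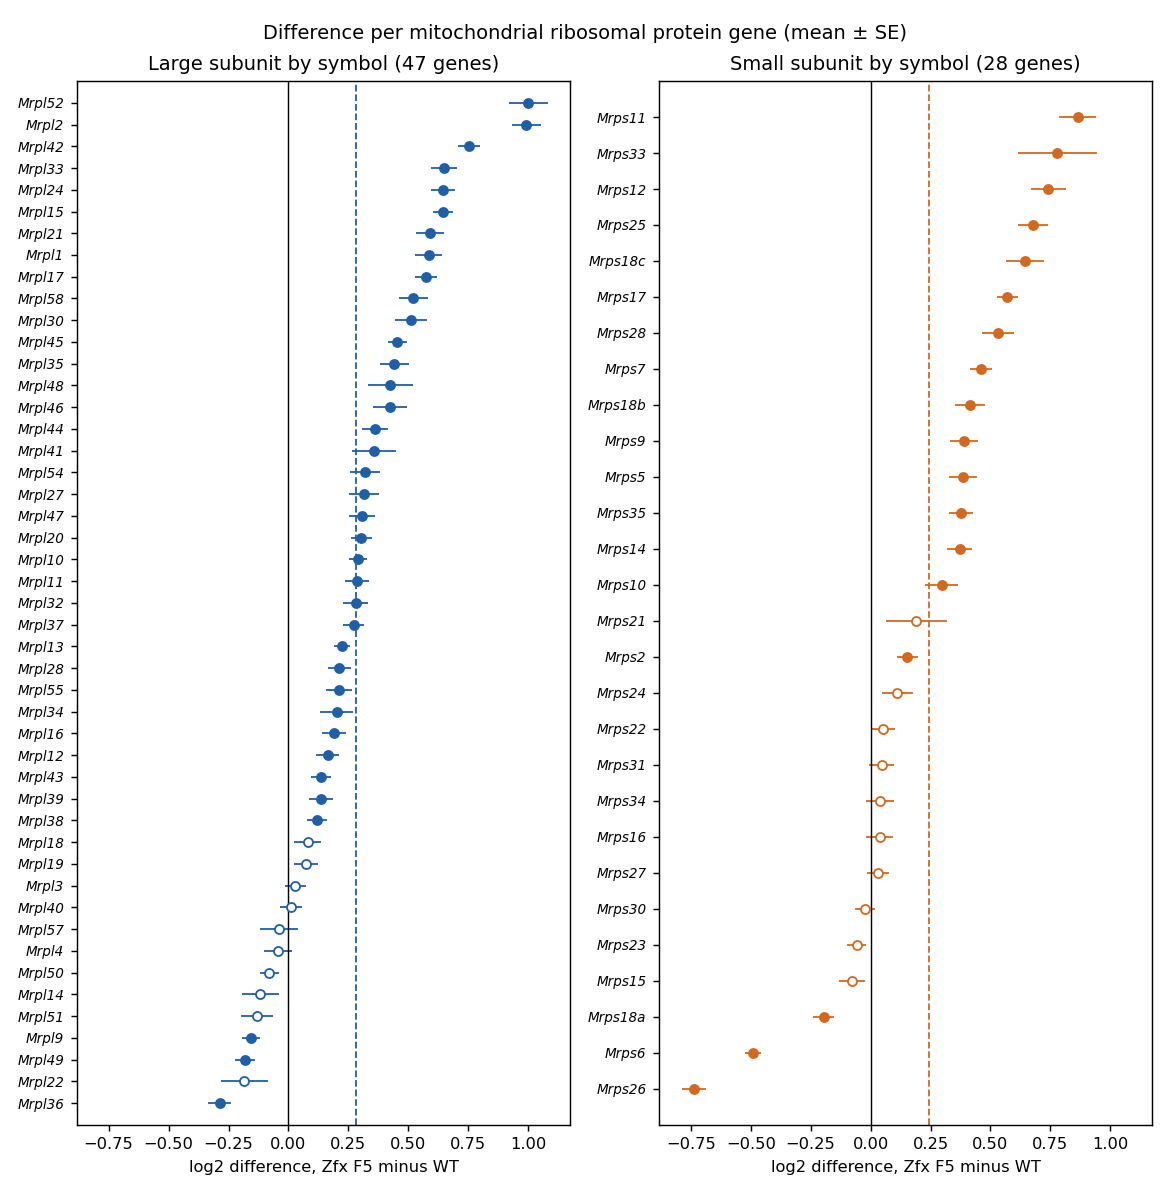
The log2 difference (Zfx F5 minus WT, horizontal axis) of each of the 75 tested genes, in a panel for each subunit by symbol, with its SE from limma as the bar. Filled points passed an adjusted p of 0.05 and open points did not, the dashed line is the subunit's median, and differences run from -0.74 (Mrps26) to 1.00 (Mrpl52).

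Before the genes are taken in turn, the sequence just upstream of 4 of them is shown, chosen as the largest rise (Mrpl52), a rising gene that shares its promoter region with another rising gene (Mrps12), the largest fall (Mrps26) and a member of the Mrps18 family that fell (Mrps18a). Each is the 150 bases before the RefSeq gene start (GRCm38.p6), 5′ to 3′ on the gene's strand. Capitals mark matches on either strand to CCGGAAG (the core that ETS factors such as GABPA bind; CTTCCGG on the other strand) or AAGATGG (YY1; CCATCTT on the other strand). CATGCGC (NRF1; GCGCATG on the other strand) and AGGCCT (a core reported for ZFX, which reads the same on both strands) were searched as well. CATGCGC can overlap its own other strand, and no matches overlap in the 4 stretches shown.
Mrpl52, chr14:54426759-54426908, plus strand: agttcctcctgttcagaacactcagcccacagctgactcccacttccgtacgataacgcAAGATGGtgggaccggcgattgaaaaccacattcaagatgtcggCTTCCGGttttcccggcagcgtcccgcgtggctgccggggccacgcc
Mrps12, chr7:28741822-28741971, minus strand: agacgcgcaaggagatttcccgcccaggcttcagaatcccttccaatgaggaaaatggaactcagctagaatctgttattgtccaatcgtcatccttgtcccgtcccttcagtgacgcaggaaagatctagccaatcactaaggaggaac
Mrps26, chr2:130563607-130563756, plus strand: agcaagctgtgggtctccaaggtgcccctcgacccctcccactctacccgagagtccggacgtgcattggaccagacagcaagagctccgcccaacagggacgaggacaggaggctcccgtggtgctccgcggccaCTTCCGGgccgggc
Mrps18a, chr17:46110854-46111003, plus strand: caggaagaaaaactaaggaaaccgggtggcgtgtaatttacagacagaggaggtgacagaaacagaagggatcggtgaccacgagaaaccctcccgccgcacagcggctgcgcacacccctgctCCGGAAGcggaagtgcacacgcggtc

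Mrpl52 and Mrps26, at the 2 ends of the range, both hold the CCGGAAG letters, and Mrps12 holds none of the motifs searched. RefSeq promoter windows of 300 bases (250 before to 50 after the start) were matched for 69 of the 78 genes and gave 75 windows. The letters CCGGAAG were in 26 of these 75 windows (34.7%), against 8.86% of 32851 windows of all genes. AAGATGG was in 13 (17.3%, against 6.34%), CATGCGC in 8 (10.7%, against 3.91%) and AGGCCT in 2 (2.67%, against 10.3%). The windows of mitochondrial ribosomal protein genes were also richer in G and C, with a median of 58.7% against 52.7%, and in CpG, with a median of 21 against 7 per window. Among tested genes with a window, CCGGAAG was found for 13 of 43 that rose, 2 of 6 that fell and 10 of 17 that were not called. A match is a description of the letters and not a binding site.

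In the large subunit 34 of 47 tested genes rose (72.3%), 3 fell and 10 were not called, with a median log2 difference of 0.28 and a range of -0.29 to 1.00. Mrpl52, a mitochondria-specific protein of this subunit, showed the largest difference of all. The gene (ENSMUSG00000010406, chr14:54426909-54429756, plus strand, mm10) measured 22.4, 23.9 and 19.1 CPM in WT and 48.2, 42.1 and 40.5 CPM in Zfx F5. Every Zfx F5 library lay above every WT library, with a log2 mean of 4.44 ± 0.17 in WT and 5.44 ± 0.13 in Zfx F5 (SD, n = 3 each). The difference was 1.00 (SE 0.081, limma adjusted p = 4.29e-09). The exact 2-sided permutation p was 0.1, the lowest value possible with 20 ways to divide the libraries, here and for every gene whose groups did not overlap.

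Mrpl2 codes for the counterpart of bacterial L2, an RNA-binding protein next to the peptidyl transferase centre, where peptide bonds are formed. It lies at chr17:46646229-46650139 on the plus strand (ENSMUSG00000002767). Its level was 29.8, 25.2 and 25.8 CPM in WT and 55.4, 52.8 and 52.2 CPM in Zfx F5, well apart. It was 1.99-fold higher (log2 difference 0.99, SE 0.06, limma adjusted p = 3.09e-15). Other proteins of that region of the ribosome are given for their place in the structure and were picked once the values were known. Mrpl16 (L16 counterpart) rose by 0.19 (SE 0.0492, adjusted p = 0.00101) and Mrpl27 (L27 counterpart) by 0.32 (SE 0.062, adjusted p = 3.91e-05) in limma. Mrpl27 shares 24.4% of its 50-base stretches with other genes, mainly the pseudogene Gm6304, so its reads are less certain. Mrpl3 had a difference of 0.03 (SE 0.0435, adjusted p = 0.56) and Mrpl4 of -0.04 (SE 0.058, adjusted p = 0.5), neither past the limma threshold.

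Mrpl42, another mitochondria-specific protein, lies at chr10:95480805-95501940 on the minus strand (ENSMUSG00000062981). It went from 49.6, 46.4 and 49.8 CPM in WT to 82.9, 82.3 and 80.3 CPM in Zfx F5. The groups stood far apart, at 1.68-fold (log2 difference 0.75, SE 0.0456, limma adjusted p = 1.8e-15). Mrpl33, the counterpart of the small bacterial protein L33, measured 30.8, 31.2 and 29.9 CPM in WT and 47.8, 47.1 and 49.2 CPM in Zfx F5. It was 1.57-fold higher with narrow groups (log2 difference 0.65, SE 0.0528, limma adjusted p = 2.09e-12).

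Mrpl24, Mrpl17, Mrpl45 and Mrpl22 lie along the tunnel of the nascent chain or at its exit, where new membrane proteins leave the ribosome. They too were picked for their place once the values were known, and stand for no list. Mrpl24 was at 45.6, 42.2 and 42.2 CPM in WT and at 70.3, 65 and 68.1 CPM in Zfx F5 (log2 difference 0.65, SE 0.0493). Mrpl17 was at 62.3, 65.6 and 61.4 CPM in WT and at 98.0, 88.9 and 95 CPM in Zfx F5 (log2 difference 0.57, SE 0.045). Mrpl45, which ties the ribosome to the inner membrane, was at 75.5, 74.7 and 75 CPM in WT and at 103, 105 and 101 CPM in Zfx F5 (log2 difference 0.45, SE 0.0401). In each of these 3 the Zfx F5 libraries were all above the WT libraries. Mrpl22, the L22 counterpart that lines the tunnel, was at 12.2, 9.43 and 11.4 CPM in WT and at 9.53, 9.51 and 9.89 CPM in Zfx F5. Its groups overlapped and it was not called (log2 difference -0.18, SE 0.0979, limma adjusted p = 0.0904), with 22.4% of its 50-base stretches shared, mainly with the pseudogene Gm6997. TMM-type scaling (-0.23, adjusted p = 0.0336) and leaving out WT replicate 2 (-0.29, adjusted p = 0.0105) called Mrpl22 lower.

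Mrpl10, Mrpl11 and Mrpl12 form the stalk and its base, which recruit the GTP-binding translation factors. Mrpl10 was at 125, 114 and 116 CPM in WT and at 144, 145 and 145 CPM in Zfx F5 (log2 difference 0.29, SE 0.0388). Mrpl11 had a difference of 0.29 (SE 0.0496). Mrpl12 was at 130, 131 and 115 CPM in WT and at 148, 138 and 134 CPM in Zfx F5. Its groups came close without overlapping, and its call (log2 difference 0.16, SE 0.0479, limma adjusted p = 0.00451) was lost without the variance trend and robust moderation (adjusted p = 0.0687).

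Among the other large subunit genes that rose, Mrpl15 went from 57.9, 60.7 and 58.7 CPM in WT to 93.3, 91.1 and 92.8 CPM in Zfx F5 (log2 difference 0.65, SE 0.0423). Mrpl21 was at 26.7, 25.3 and 28.6 CPM against 39.9, 41.3 and 40.0 CPM (0.59, SE 0.0584), with some of its exons lying over Ighmbp2 on the opposite strand, which rose by 0.26 (SE 0.0569). Mrpl1 was at 26.7, 27.9 and 29.7 CPM against 42.8, 43.1 and 40.6 CPM (0.58, SE 0.0574). All 3 are counterparts of bacterial proteins, and their groups were well separated. Mrpl58, a peptidyl-tRNA hydrolase that frees stalled chains and is also built into the large subunit, rose by 0.52 (SE 0.0594). Mrpl44, a protein with a ribonuclease III-like fold, rose by 0.36 (SE 0.0535), and exons of Wdfy1 on the opposite strand, which fell (-0.36, SE 0.0439), overlap it. Mrpl48 went from 9.42, 9.48 and 9.49 CPM to 11.1, 13.1 and 14.2 CPM (0.43, SE 0.0942), with the wider spread in Zfx F5.

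Some calls at the small end of the rises depended on the processing. Mrpl34 had overlapping groups, at 25.1, 27.0 and 24.2 CPM in WT and 31.7, 26.3 and 29.9 CPM in Zfx F5 (log2 difference 0.20, limma adjusted p = 0.00958). Its adjusted p was 0.0638 without trend and robust moderation and 0.093 without Zfx F5 replicate 1. Mrpl38, a mitochondria-specific protein, overlapped likewise, at 95.8, 106 and 98.7 CPM in WT and 112, 105 and 110 CPM in Zfx F5 (0.12, limma adjusted p = 0.012). Its adjusted p was 0.126 with scaling of the TMM type, 0.0827 without trend and robust moderation, 0.0809 when WT replicate 1 was left out and 0.0684 when Zfx F5 replicate 1 was. Mrpl39 (0.14, limma adjusted p = 0.0148) lost its call with no filter (0.0736), with TMM-type scaling (0.113) and without WT replicate 2 (0.114). Mrpl43 (0.14, limma adjusted p = 0.00585) lost it with TMM-type scaling (0.0674).

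The 3 large subunit genes that fell did so by little. Mrpl36, the counterpart of the zinc-binding bacterial L36, was at 75.2, 81.3 and 72.6 CPM in WT and at 62.0, 59.5 and 66.2 CPM in Zfx F5. The groups were apart, and it fell 1.22-fold (log2 difference -0.29, SE 0.0489, limma adjusted p = 5.35e-06). Exons of Ndufs6 on the opposite strand overlap Mrpl36, and Ndufs6 rose by 0.20 (SE 0.0635). Mrpl49 was at 87.5, 83.3 and 86.7 CPM in WT and at 75.6, 76.0 and 75.3 CPM in Zfx F5, 1.13-fold lower (-0.18, SE 0.0412, limma adjusted p = 0.000237). Exons of Syvn1 on the opposite strand overlap Mrpl49, and Syvn1 fell by more (-0.33, SE 0.0377). Mrpl9, the L9 counterpart, was at 125, 120 and 119 CPM in WT and at 111, 108 and 107 CPM in Zfx F5, 1.12-fold lower (-0.16, SE 0.038, limma adjusted p = 0.000473). Under quantile normalization its call was lost (-0.07, adjusted p = 0.117). Mrpl50 was not called although its groups did not overlap, at 104, 104 and 104 CPM in WT and 98.4, 99.7 and 97.0 CPM in Zfx F5 (-0.08, limma adjusted p = 0.0639). With TMM-type scaling Mrpl50 was called lower (-0.13, adjusted p = 0.00379).

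In the small subunit 15 of 28 tested genes rose (53.6%), 3 fell and 10 were not called, with a median log2 difference of 0.24 and a range of -0.74 to 0.86. The medians of the subunits, 0.28 and 0.24, lay close together next to the spread among their genes. Mrps11, the counterpart of the S11 protein of the platform, rose most. The gene (ENSMUSG00000030611, chr7:78783119-78792989, plus strand) was at 14, 14.7 and 11.8 CPM in WT and at 24.8, 25.2 and 23.7 CPM in Zfx F5. The groups lay far apart, at 1.82-fold (log2 difference 0.86, SE 0.0784, limma adjusted p = 2.67e-11). Its exons overlap those of Mrpl46 on the opposite strand, which rose by 0.42 (SE 0.071), from 19.3, 17.5 and 20.1 CPM to 27.4, 24.7 and 24.3 CPM. Where the exons overlap, reads of the pair cannot be told apart unless counting used strand, which the sources used here do not give.

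Mrps12 codes for the counterpart of S12, which lies at the decoding centre where codon and anticodon pair. The gene (ENSMUSG00000045948, chr7:28739641-28741820, minus strand) was at 19.3, 21.7 and 17.4 CPM in WT and at 34.2, 31.2 and 32.1 CPM in Zfx F5. It was 1.67-fold higher with no overlap (log2 difference 0.74, SE 0.0717, limma adjusted p = 2.32e-10). Among other genes of the decoding region and the mRNA channel, Mrps5, the S5 counterpart, rose by 0.39 (SE 0.0576), with 8.40% of its 50-base stretches shared. Mrps24, the S3 counterpart, was at 29.0, 27.1 and 24.6 CPM in WT and at 28.6, 28.7 and 29.7 CPM in Zfx F5. It was not called (0.11, SE 0.064, limma adjusted p = 0.119), but passed with median centring (adjusted p = 0.0463), with quantile normalization (0.0441) and without WT replicate 1 (0.0312).

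Among other small subunit genes, Mrps7, the S7 counterpart, rose by 0.46 (SE 0.0441), from 80.3, 79.1 and 71.7 CPM to 109, 104 and 106 CPM. Mrps28 rose by 0.53 (SE 0.0665), from 18.0, 18.1 and 18.2 CPM to 27.5, 24.8 and 26.4 CPM. Mrps17, the S17 counterpart, rose by 0.57 (SE 0.0434), from 135, 116 and 122 CPM to 183, 181 and 188 CPM. Each of these 3 genes had groups that did not overlap. Mrps21, the S21 counterpart, had the widest spread of the 75 genes, with an SD of 0.27 in Zfx F5. It was at 5.95, 6.57 and 5.65 CPM in WT and at 8.49, 6.63 and 5.85 CPM in Zfx F5, and was not called (0.19, SE 0.126, limma adjusted p = 0.174). Without Zfx F5 replicate 3, the lowest of its group, it was called higher (0.31, adjusted p = 0.043).

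The mitochondria-specific small subunit genes Mrps25 and Mrps33 rose as well. Mrps25 was at 26.2, 22.9 and 22.9 CPM in WT and at 37.3, 38.7 and 39.0 CPM in Zfx F5 (log2 difference 0.68, SE 0.0619, limma adjusted p = 3.05e-11). It shares 11.7% of its 50-base stretches, mainly with Gm42933, and its exons overlap those of Nr2c2 on the opposite strand, which fell (-0.45, SE 0.0468). Mrps33 was low, at 2.95, 2.17 and 2.27 CPM in WT and 4.77, 4.25 and 3.69 CPM in Zfx F5, on 41 to 101 reads. Its groups did not overlap, at 1.72-fold (0.78, SE 0.164, limma adjusted p = 9.78e-05). It shares 13.3% of its 50-base stretches, mainly with the pseudogene Gm5776, which held 63, 79 and 91 reads in WT and 122, 95 and 140 reads in Zfx F5.

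Mrps26 and Mrps6 fell, and by more than any other gene of the family. Mrps26, a mitochondria-specific protein (ENSMUSG00000037740, chr2:130563742-130568695, plus strand), was at 65.6, 66.9 and 60.8 CPM in WT and at 39.2, 36.9 and 39.7 CPM in Zfx F5. It fell 1.67-fold with groups far apart (log2 difference -0.74, SE 0.0509, limma adjusted p = 4.27e-14). Mrps6, the counterpart of S6, a protein of the platform (ENSMUSG00000039680, chr16:92058270-92112227, plus strand), was at 232, 231 and 233 CPM in WT and at 168, 162 and 165 CPM in Zfx F5. The WT values were nearly equal, and it fell 1.41-fold (-0.49, SE 0.0334, limma adjusted p = 2.87e-14). Exons of Slc5a3, a solute carrier gene on the same strand, overlap those of Mrps6, and Slc5a3 had a difference of -0.10 (SE 0.0443, limma adjusted p = 0.0472). That call of Slc5a3 was lost under several alternatives, for example without Zfx F5 replicate 1 (-0.05, adjusted p = 0.334).

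**Figure D2:**
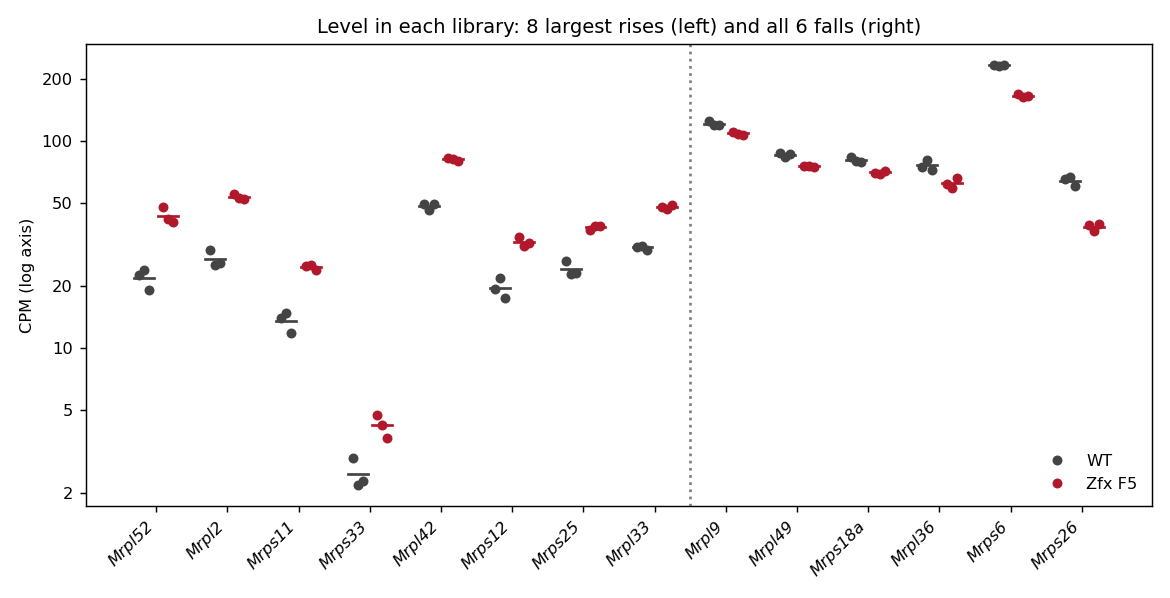
CPM on a log axis in each WT and Zfx F5 library for the 8 genes that rose most and the 6 that fell, with a horizontal bar at the group mean. Mrpl52 went from 19.1 to 23.9 CPM in WT to 40.5 to 48.2 CPM in Zfx F5, and Mrps26 from 60.8 to 66.9 CPM to 36.9 to 39.7 CPM. The groups overlapped in none of the 14 genes, which were chosen by their calls and differences. Among all tested genes the groups did not overlap for 74.3%.

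The Mrps18 family shows how far a symbol can stand from the place in the particle. Mammals have 3 relatives of bacterial S18, of which Mrps18b and Mrps18c sit in the small subunit and Mrps18a in the large one. Mrps18a (ENSMUSG00000023967, chr17:46110986-46128910, plus strand) was at 83.6, 79.8 and 79.2 CPM in WT and at 70.4, 69.5 and 71.7 CPM in Zfx F5. It fell 1.15-fold (log2 difference -0.20, SE 0.0424, limma adjusted p = 0.000136). Mrps18b was at 27.9, 24.7 and 26.8 CPM in WT and at 34.4, 37.7 and 33.7 CPM in Zfx F5 and rose by 0.41 (SE 0.0624, limma adjusted p = 6.71e-07). Mrps18c was at 12.5, 11.0 and 12.7 CPM in WT and at 19.5, 18.6 and 18.6 CPM in Zfx F5 and rose 1.56-fold (0.65, SE 0.0797, limma adjusted p = 1.68e-08). The members of the family thus moved to both sides, with no overlap of groups in any of them. Mrps18b shares 14.6% of its 50-base stretches, mainly with the pseudogene Gm13552, and Mrps18c shares 9.62%.

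Mrps30, which despite its symbol is a large subunit protein, was at 99.5, 97.7 and 95.9 CPM in WT and at 101, 95.9 and 91.4 CPM in Zfx F5. The groups overlapped and it was not called (-0.02, SE 0.0419, limma adjusted p = 0.618). Mrps36 is now known as a subunit of the oxoglutarate dehydrogenase complex and not of the ribosome. It had 12, 9 and 6 reads in WT and 8, 9 and 10 in Zfx F5, under the filter, while the pseudogene Mrps36-ps2 held 31 to 37 reads per library. With genes placed by structure, 34 of 49 large subunit genes rose and 4 fell, with a median of 0.27, and 15 of 26 small subunit genes rose and 2 fell, with a median of 0.33.

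The other 2 genes under the filter belong to the large subunit. Mrpl23, the L23 counterpart, had 7, 6 and 9 reads in WT and 8, 7 and 4 in Zfx F5, and shares 11.8% of its 50-base stretches. Its pseudogene Mrpl23-ps1 held 148 to 208 reads per library. Mrpl53 had 0 reads in all 6 libraries, which allows a level of up to 0.124 to 0.159 CPM depending on the library. Its exons overlap those of Gm42688, a protein-coding model on the same strand that held 23 to 29 reads per library. The sources used here do not give how counting treated overlapping models and near-identical copies.

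Genes with a bacterial counterpart and mitochondria-specific genes both leaned to the higher side. Of 44 tested genes with a counterpart 31 rose (70.5%) and 3 fell (6.82%), with a median log2 difference of 0.29. Of 30 mitochondria-specific genes 17 rose (56.7%) and 3 fell (10%), with a median of 0.14. Among all tested genes 37.0% were called higher and 35.9% lower, with a median of 0.02. Mrps18a and Mrps18b, although relatives of bacterial S18, were classed as mitochondria-specific, and Mrps18c as having a counterpart. Mrpl55 was tested but put in neither class. With genes placed by structure, 11 of 16 small subunit genes with a counterpart rose (68.8%, median 0.38). Of the 10 mitochondria-specific ones 4 rose (40%, near the 37.0% of all tested genes) and 1 fell (10%), with a median of 0.05. In the large subunit by structure, which takes in Mrps18a and Mrps30, the counts were 20 of 28 (median 0.28) and 13 of 20 (median 0.20). Among the mitochondria-specific small subunit genes that were not called, Mrps22, Mrps23, Mrps27, Mrps31 and Mrps34 had differences between -0.06 and 0.05 in log2. These classes were compared as counts and medians, and no test of the difference between them was made.

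Per exon length the genes spanned a wide range of levels. The WT mean ran from 1.60 CPM per kb for Mrps33 to 274 CPM per kb for Mrps6 among the 75 tested genes, with a median of 27.7 CPM per kb in WT and 30.6 in Zfx F5. Mrps6 kept the top rank in Zfx F5 at 195 CPM per kb. Mrpl13, the L13 counterpart, followed at 134 CPM per kb in WT and 157 in Zfx F5. It rose 1.17-fold, from 167, 163 and 162 CPM to 193, 194 and 189 CPM (log2 difference 0.22, SE 0.0342, limma adjusted p = 9.1e-07). Its exons overlap those of Mtbp on the opposite strand, and Mtbp rose by more (0.59, SE 0.036). Mrpl12 stood at 95.2 and 107 CPM per kb. Mrps23 stood at 85.0 and 81.5 CPM per kb, with 126, 122 and 116 CPM in WT and 115, 118 and 116 CPM in Zfx F5. Mrps23 was not called (-0.06, limma adjusted p = 0.176), though TMM-type scaling (-0.11, adjusted p = 0.0137) and leaving out WT replicate 3 (-0.09, adjusted p = 0.0481) called it lower.

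In CPM per kb the genes that fell were among the more abundant ones, apart from Mrps26. Mrps26 has a summed exon length of 4278 bases, and its WT mean without length was 64.4 CPM. By WT level per kb Mrps6 ranked 1, Mrps18a 5, Mrpl36 10, Mrpl49 16, Mrpl9 20 and Mrps26 53. Mrpl52, in contrast, moved from rank 22 to rank 6, from 45.4 to 90.9 CPM per kb. The genes were not picked for level, but a fall and a high WT value share the WT libraries, so this order is a description.

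**Figure D3:**
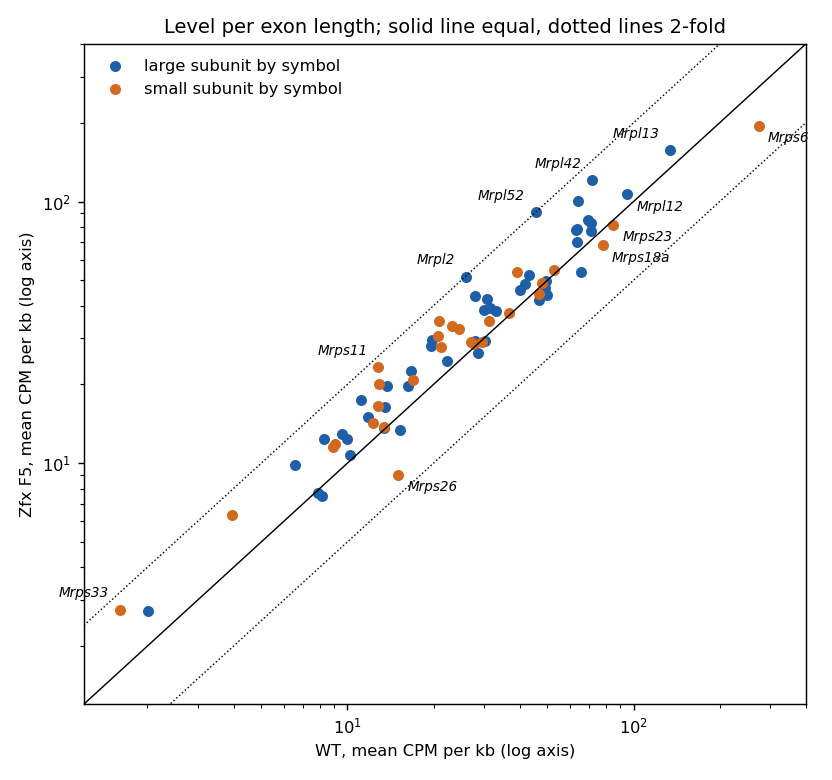
Mean CPM per kb of exon in WT (horizontal) and Zfx F5 (vertical) on log axes for the 75 tested genes, blue for the large and orange for the small subunit by symbol. The solid line marks equal levels and the dotted lines 2-fold, Mrps6 lies below the solid line at 274 and 195 CPM per kb, and most other points lie above it.

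Summed per length over all 78 genes, the large subunit was higher in Zfx F5 and the small subunit was nearly level. The large subunit summed to 1748, 1706 and 1649 CPM per kb in WT and to 2093, 2045 and 2050 in Zfx F5. The means were 1701 ± 49.4 and 2063 ± 26.2 (SD, n = 3), 1.21-fold. The small subunit summed to 1032, 1005 and 983 CPM per kb in WT and to 1038, 1002 and 1007 in Zfx F5, with overlapping groups. Its means were 1007 ± 24.4 and 1016 ± 19.7 (SD, n = 3), 1.01-fold. The ratio of large to small was 1.69, 1.70 and 1.68 in WT and 2.02, 2.04 and 2.04 in Zfx F5, so that the groups did not overlap.

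A single gene, Mrps6, weighed heavily in the sum of the small subunit. It alone fell by 79.3 CPM per kb, while the largest gains were in Mrpl42 (49.0), Mrpl52 (45.4), Mrpl33 (36.5) and Mrpl2 (25.6). Without Mrps6 the small subunit sum was 1.12-fold higher in Zfx F5, and the ratio of large to small went from 2.32 to 2.51. Without Mrps6, Mrpl42 and Mrpl52 the ratio went from 2.16 to 2.26. With genes placed by structure and none left out it went from 2.01 to 2.35. By CPM without length, the large subunit was 1.18-fold and the small subunit 1.07-fold higher. These sums weigh genes by level, while the medians of 0.28 and 0.24 weigh each gene alike.

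**Figure D4:**
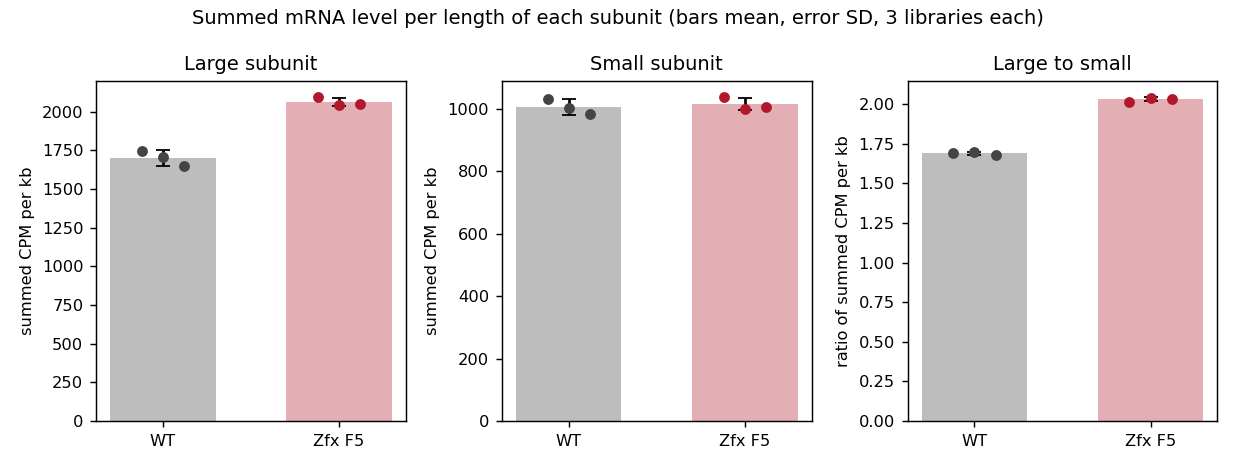
Summed CPM per kb of the large and the small subunit by symbol, and their ratio, in each library (points), with the mean as the bar and the SD over 3 libraries as the error. The large subunit sum averaged 1701 in WT and 2063 in Zfx F5 without overlap, the small subunit averaged 1007 and 1016 with overlap, and the ratio went from 1.69 to 2.03.

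Genes that start head to head with a mitochondrial ribosomal protein gene did not all follow it. Within 1000 bases upstream of, or 200 bases inside, the annotated start of these genes there were 23 protein-coding genes on the opposite strand, and both partners were tested in 22 pairs. Both rose in 8 pairs and both fell in 0. The partners were called in opposite directions in 6 pairs, and in 8 pairs at most 1 partner was called. Of the 22 partner genes 13 rose and 6 fell, with a median of 0.21. Among all tested genes 37.0% were called higher and 35.9% lower, 72.9% in all, so pairs with both partners called are common in this comparison.

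The pair of Mrps12 and Sars2 lies 172 bases apart at its starts, and the Mrps12 stretch printed above covers most of that distance. Sars2, the mitochondrial seryl-tRNA synthetase, was at 12.9, 12.7 and 13.0 CPM in WT and at 23.1, 24.2 and 25.8 CPM in Zfx F5. It was 1.89-fold higher (log2 difference 0.92, SE 0.0725, limma adjusted p = 1.06e-12), so both sides of that region rose. Mrpl2 and Klc4, a kinesin light chain gene, lie 207 bases apart, and Klc4 rose by 0.64 (SE 0.128). Mrpl30 and Mitd1 lie 66 bases apart, and rose by 0.51 (SE 0.0662) and 0.69 (SE 0.0775). In contrast, Mrpl36 fell while Ndufs6, a complex I subunit gene whose start overlaps it by 29 bases, rose by 0.20 (SE 0.0635). Mrpl49 fell while Fau, 59 bases away, rose by 0.57 (SE 0.112) on 104 to 209 reads per library. Mrps7 rose while Gga3 fell (-0.40, SE 0.0425), and exons of Gga3 and Mif4gd on the opposite strand overlap those of Mrps7.

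A list of mitochondrial ribosomal proteins outside the symbol rule held 7 names, of which 5 were found in the table. The other two, Ict1 and Mrp63, are older symbols of Mrpl58 and Mrpl57 (RefSeq), which are among the 78 genes. All 5 genes found were called higher, with a median of 0.29, where 37.0% of all tested genes were. Dap3, a GTP-binding protein of the small subunit, was at 85.8, 78.8 and 76.9 CPM in WT and at 125, 122 and 124 CPM in Zfx F5. It was 1.54-fold higher (log2 difference 0.62, SE 0.0421, limma adjusted p = 2.76e-14). Chchd1, also of the small subunit, was at 40.1, 42.7 and 38.7 CPM in WT and at 58.9, 60.3 and 56.2 CPM in Zfx F5 (0.53, SE 0.0512). The small subunit genes Ptcd3 and Aurkaip1 rose by 0.29 (SE 0.0408) and 0.28 (SE 0.0534), and the large subunit gene Gadd45gip1 by 0.27 (SE 0.0496). The groups of the first-named genes, Dap3 and Chchd1, stood clear of each other.

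Genes that serve the same particle were listed by role, with the earlier results of these data known. Of 38 names for ribosome assembly and rRNA processing 36 were found in the table and 35 passed the filter. Yars2, a tRNA synthetase gene, stood both in this list and in that of the synthetases below, and was not called (-0.06, SE 0.0589). Of these 16 rose (45.7%, against 37.0% of all tested genes), 5 fell (14.3%, against 35.9%) and 14 were not called (40%), with a median of 0.07. Nsun4, an rRNA methyltransferase, rose by 0.84 (SE 0.0846, limma adjusted p = 2.49e-10), from 10.9, 9.80 and 11.9 CPM to 18.5, 18.8 and 21 CPM. Mtg1, a GTPase of large subunit assembly, rose by 0.74 (SE 0.0662) and Ngrn by 0.74 (SE 0.0628). Grsf1, an RNA-binding protein of mitochondrial RNA granules, fell 1.70-fold, from 169, 165 and 172 CPM to 99.8, 101 and 97.0 CPM (-0.76, SE 0.0371, limma adjusted p = 8.53e-18). Mrm1, another rRNA methyltransferase, fell by 0.52 (SE 0.0754) and Malsu1, a large subunit assembly factor, by 0.29 (SE 0.0795).

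Of 16 mitochondrial translation factors listed 14 were found and tested. Of these 10 rose (71.4%, against 37.0% of all tested genes) and 1 fell (7.14%, against 35.9%), with a median of 0.20. The list took in Mief1, better known as a gene of mitochondrial fission, which rose by 0.11 (SE 0.0401). Tufm, the elongation factor that brings aminoacyl-tRNA, rose by 0.51 (SE 0.138, limma adjusted p = 0.00142), from 3.64, 3.55 and 3.38 CPM to 5.24, 5.52 and 4.44 CPM. Tufm was low, on 67 to 111 reads per library, and sharing of its sequence with copies was not tested. Mtrf1, a release factor family gene, rose by 0.50 (SE 0.0777) and Mrrf, the recycling factor, by 0.49 (SE 0.07). Oxa1l, which inserts new proteins into the inner membrane, was called lower (-0.10, SE 0.0461, limma adjusted p = 0.0478), but that call was lost under most alternatives, with adjusted p up to 0.494 under quantile normalization.

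Of 22 genes listed as mitochondrial aminoacyl-tRNA synthetases 15 rose (68.2%, against 37.0% of all tested genes) and 5 fell (22.7%, against 35.9%). Their median was 0.27. The list took in Gatb, Gatc and Qrsl1, which code for subunits of a tRNA amidotransferase and not for synthetases, so these shares are not those of synthetases alone. Beside Sars2, Gatb rose by 0.89 (SE 0.074) and Gars, whose enzyme also serves the cytosol, by 0.69 (SE 0.0303). Cars2 fell by 0.58 (SE 0.0675), Hars2 by 0.37 (SE 0.0598) and Mars2 by 0.23 (SE 0.0573). Of 19 genes listed for mitochondrial transcription and genome maintenance 17 were found and 16 tested. Of these 10 rose (62.5%, against 37.0%) and 3 fell (18.8%, against 35.9%), with a median of 0.24. Top1mt rose by 0.70 (SE 0.0879), Tfb2m by 0.55 (SE 0.0961) and Elac2 by 0.51 (SE 0.0423), while Trmt10c fell by 0.31 (SE 0.042), Polg2 by 0.31 (SE 0.0956) and Polg by 0.23 (SE 0.0425). Of 24 protein import genes 22 were tested, of which 14 rose (63.6%, against 37.0%) and 2 fell (9.09%, against 35.9%), with a median of 0.19. Timm44 rose by 0.50 (SE 0.0432), Tomm40 by 0.44 (SE 0.0486) and Tomm7 by 0.41 (SE 0.0563), while Pmpca fell by 0.34 (SE 0.0333) and Timm22 by 0.25 (SE 0.0496).

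The mRNAs that the mitochondrial ribosome translates come from the mitochondrial genome. Of its 13 protein-coding genes 7 rose (53.8%, against 37.0% of all tested genes) and 0 fell (against 35.9%), with a median of 0.41. The median was 0.59 without WT replicate 3, the highest WT library in their sum. Together they took 10085, 9283 and 11419 CPM in WT and 12263, 13554 and 13562 CPM in Zfx F5, with no overlap. mt-Nd6, a complex I subunit gene, rose most, from 26.6, 33.5 and 32.1 CPM to 48.5, 51.0 and 51.4 CPM (log2 difference 0.72, SE 0.0689, limma adjusted p = 8.22e-09). mt-Nd3 rose by 0.66 (SE 0.167) and mt-Nd2 by 0.61 (SE 0.109). Both mitochondrial rRNAs together held 1 to 7 reads per library, and give no measure of the RNA part of the particle. Nuclear copies of mitochondrial genes can share reads with them.

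Among 13 listed regulators of nuclear mitochondrial genes 12 were tested. Of these 2 rose (16.7%, against 37.0% of all tested genes) and 7 fell (58.3%, against 35.9%), with a median of -0.10. Gabpb1, a subunit of the ETS factor GABP, fell 1.64-fold, from 62.5, 61.5 and 65.2 CPM to 37.9, 39.1 and 38.3 CPM (-0.71, SE 0.0486, limma adjusted p = 3.17e-14). Nrf1, a transcription factor known to act on many nuclear mitochondrial genes, fell from 66.4, 68.5 and 65.3 CPM to 54.9, 55.4 and 52.8 CPM (-0.30, SE 0.0455, limma adjusted p = 9.27e-07). Tfeb, a regulator of lysosomal genes, fell by 0.43 (SE 0.113). Ppargc1b, a coactivator, rose by 0.45 (SE 0.0867). Esrra, a nuclear receptor, rose by 0.16 (SE 0.0498), a call lost without trend and robust moderation (adjusted p = 0.054). Ppargc1a, under the filter and named after its values were seen, had 36, 28 and 31 reads in WT and 1, 0 and 0 in Zfx F5.

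**Figure D5:**
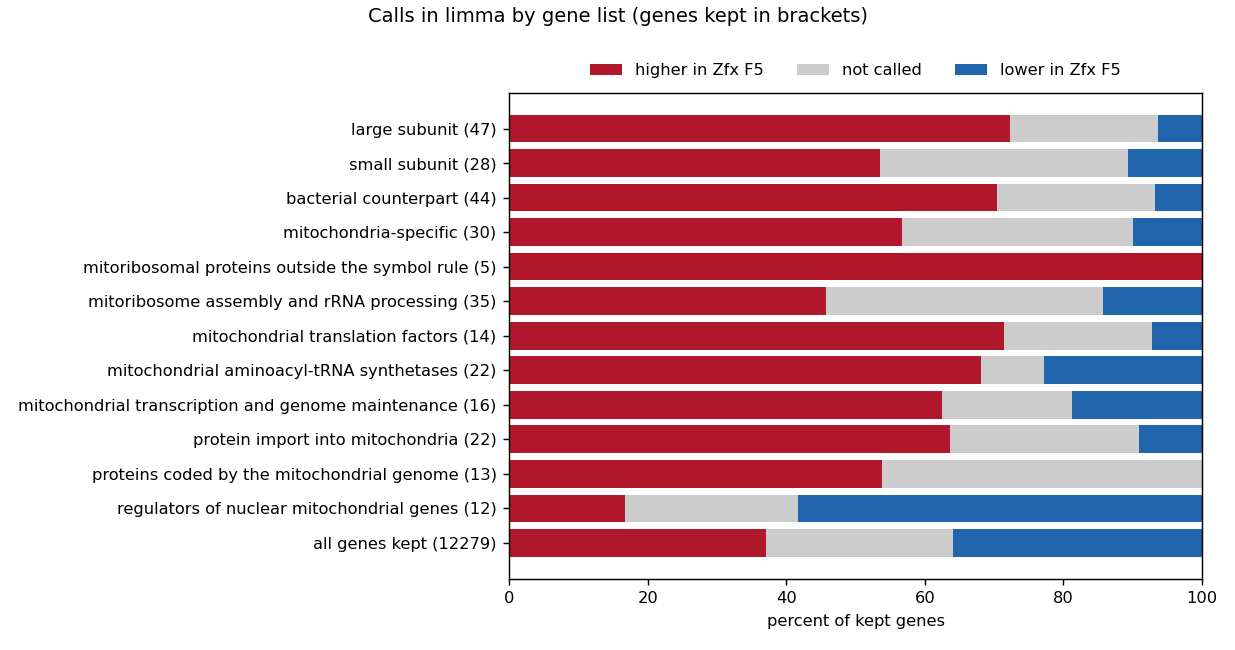
Percent of tested genes (horizontal axis) called higher (red), not called (grey) and called lower (blue) in Zfx F5, for the subunits by symbol, the classes of origin, the related lists and all tested genes, with the number tested in brackets. Higher calls make up 72.3% of the large subunit, 53.6% of the small subunit and 37.0% of all tested genes.

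Shared exons and near-identical copies touch many of these genes. Exons of 33 of the 78 overlap another gene model, and 14 share at least 5% of their 50-base stretches with another gene. The 38 tested genes with neither had 28 rises and 1 fall, with a median of 0.28. Among the 32 tested genes with an exon overlap 18 rose and 5 fell, with a median of 0.19. Among the 12 tested genes with at least 5% shared 9 rose and 1 fell, with a median of 0.40. The median of the genes free of both was thus the same, to 2 decimals, as that of all 75. The falls differ in this respect, as Mrps18a was the only gene that fell with neither. Mrps26, Mrps6, Mrpl36, Mrpl49 and Mrpl9 all have an exon overlap, and Mrps26 also shares 5.21% of its 50-base stretches. The model that overlaps Mrps26, 4930473A02Rik, held 0 to 1 reads per library, and Oaz3, which overlaps Mrpl9, held 0 to 2. Any part of the overlaps in the falls was not tested.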

How the data were processed

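Gene expression was measured by RNA sequencing in 3 WT and 3 Zfx F5 libraries of MC-38 cells. The authors deposited log2 values per gene, normalized per the table's name, and the sources used here do not give the aligner or counting program. The submitters' processing notes name the builds mm10 and GRCh38. The shared floor of -4.82 and column sums show that the deposited values are log2(CPM + 0.0353). Of values up to 300 reads, 100% were whole within 0.05 read, and 1 read was worth 0.0413 to 0.0530 CPM. Floors cover counting error only. Identifiers were matched to GENCODE M21 (mm10) for 52489 of 52636 rows, and 0 sample columns were unused. The deposited size column equals summed exon length for all 52636 rows.

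The values were compared with limma 3.58.1 in R 4.3.3 (group model, variance trend, robust moderation, 2-sided, Benjamini-Hochberg adjustment over 12279 genes). Every adjusted p is limma's. Fold changes are on the log2(CPM + 0.0353) scale and understate those of genes with few reads. The fit was tested on simulated data. Replicate numbers follow accession order and pair nothing. Nothing says that libraries came from separate cultures, so p-values measure a spread that may be technical. Replicate pairs all differed beyond sampling noise.

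The members and lists were chosen with earlier results of these data known. The naming rule took Zfx, the 8 largest changes each way, genes under the filter, the Mrps18 genes, Mrps30, Mrps36, the 3 highest per subunit by CPM per kb, the widest spread and up to 3 genes each way per list. Other members were named for their role after their values were seen. Alternatives were other filters, pseudocounts, scalings, moderation, array weights, single libraries left out, and, added after seeing the data, members free of overlaps and copies.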

Additional observations from a re-analysis of the deposited data

How the results depend on the processing

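Of the 49 rises 44 kept their call in every alternative run, as did 5 of the 6 falls. The exceptions were Mrpl12, Mrpl34, Mrpl38, Mrpl39, Mrpl43 and Mrpl9. No gene called changed direction. Of the 20 genes not called, 1 kept both that and its sign in every alternative, and 10 changed sign in some. Besides those named above, Mrpl14, Mrpl51 and Mrps15 were called lower in at least 1 alternative, and Mrpl19, Mrps22 and Mrps27 higher. TMM-type scaling moved the counts of falls most, to 11 of all members, 6 large and 5 small, and the medians to 0.23, 0.23 and 0.20. Quantile normalization gave medians of 0.33 for all members and 0.34 for the large subunit, and log2(CPM + 5) gave 0.24 for all members and 0.19 for the small subunit. The small subunit median was 0.19 with no filter, 0.19 with a stricter filter and 0.33 by structure. The cause of these shifts was not tested. Leaving out 1 library gave 47 to 50 rises and 6 to 8 falls among all members with medians of 0.24 to 0.29, 32 to 34 and 3 to 4 in the large subunit with medians of 0.24 to 0.29, and 15 to 16 and 3 to 4 in the small subunit with medians of 0.20 to 0.30. Uncalled genes that crossed 0 were Mrps30 with median centring (0.0041), Mrps30 (0.052) and Mrps23 (0.039) with quantile normalization, and, with TMM-type scaling, Mrpl3 (-0.019), Mrpl40 (-0.038), Mrps16 (-0.0096), Mrps27 (-0.018), Mrps31 (-0.0026) and Mrps34 (-0.0090). With single libraries left out, the uncalled differences that crossed 0 ran from -0.095 to 0.0017 for Mrpl4, from -0.026 to 0.040 for Mrpl40, from -0.086 to 0.045 for Mrpl57, from -0.0058 to 0.084 for Mrps27 and from -0.062 to 0.012 for Mrps30. Depth limits Mrps33, with 41 to 101 reads per library, most among the tested genes. No paired analysis was possible because the labels give no replicate numbers.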
